A study of Mus musculus with 24 samples.

Results

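The 10 genes described here encode the enzymes that build purine nucleotides from small precursors, together with the enzymes that turn inosine monophosphate (IMP) into guanosine monophosphate (GMP). They are Prps1, Ppat, Gart, Pfas, Paics, Adsl, Atic, Impdh1, Impdh2 and Gmps, chosen by name, and all 10 of 10 were among the 36528 gene rows of the files and among the 17468 genes that passed the filter on low counts. Their messenger RNA was measured by polyA RNA sequencing in sorted cells of mouse tumours from the small intestine, with the genotype that the labels call AKVPL, whose alleles the labels do not spell out. The treatment was diphtheria toxin (DT), which in this design removes cells expressing the stem cell receptor Lgr5, or saline as the control. Libraries were made at 24, 48 and 96 h, with 4 of saline and 4 of DT at each time, 24 in all. All 6 groups share the genotype, the tissue, a sample name holding EpCAM (an epithelial surface protein) and a sort recorded as bulk. The labels give neither the age of the animals nor whether the libraries of a group came from separate animals or pools, so p-values refer to the spread among these libraries only, and that spread may be technical. Libraries held between 10888654 and 27707554 counts. Replicate 3 of DT at 48 h stood apart on the first principal component of all genes, at -2.97. The remaining 48 h DT libraries lay at 18.4 to 30.9. Every saline library lay below it on that component, from -26.7 to -17.2. Leaving it out therefore removes the 48 h DT library nearest to saline there. By chi-square per degree of freedom between counts of replicates, DT replicate 1 was the farthest of that group, at 22.6 to 33.2. The main 48 h results are given with and without replicate 3.

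Cells can make purines in a long chain of steps that assembles the ring on a ribose phosphate, or recover bases from breakdown by salvage. Phosphoribosyl pyrophosphate synthetase, encoded by Prps1, supplies the activated sugar, and Ppat encodes the amidotransferase that commits it to the pathway. Gart, Pfas, Paics, Adsl and Atic carry out the steps to IMP, several of them with more than 1 activity on a single protein. Impdh1 and Impdh2 are isozymes that oxidise IMP, and Gmps aminates the product to GMP. Adsl also acts in the branch to adenosine monophosphate. The pathway is known for its high demand in dividing cells, which need nucleotides for DNA and RNA.

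Ppat and Paics lie head to head on chromosome 5 of GRCm38.p6. Ppat runs on the minus strand at chr5:76913249-76951578 and Paics on the plus strand at chr5:76951302-76967509, so that the first 277 bases of the annotated genes overlap. RefSeq promoter windows of GRCm38.p6, from 250 bases before to 50 bases after each start, were matched for 9 of the 10 genes (10 windows, since Impdh1 has more than 1 start). Pfas was not matched. The 4 windows below are shown because Ppat and Paics face each other, and because Atic, Impdh2 and Paics hold the letters CACGTG, the E-box bound by Myc and related factors. Capitals mark the E-box in Atic, Impdh2 and Paics and, in Ppat, the core of the NRF1 motif (GCGC, any 2 bases, GCGC). The windows are chr1:71556906-71557205 on the plus strand for Atic, chr9:108560186-108560485 on the plus strand for Impdh2, chr5:76951052-76951351 on the plus strand for Paics and chr5:76951529-76951828 on the minus strand for Ppat.
Atic: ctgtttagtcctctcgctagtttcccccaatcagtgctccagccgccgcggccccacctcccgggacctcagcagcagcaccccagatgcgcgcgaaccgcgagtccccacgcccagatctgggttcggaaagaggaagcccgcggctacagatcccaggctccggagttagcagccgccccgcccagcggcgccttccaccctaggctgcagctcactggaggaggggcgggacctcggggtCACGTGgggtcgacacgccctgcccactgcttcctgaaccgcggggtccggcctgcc
Impdh2: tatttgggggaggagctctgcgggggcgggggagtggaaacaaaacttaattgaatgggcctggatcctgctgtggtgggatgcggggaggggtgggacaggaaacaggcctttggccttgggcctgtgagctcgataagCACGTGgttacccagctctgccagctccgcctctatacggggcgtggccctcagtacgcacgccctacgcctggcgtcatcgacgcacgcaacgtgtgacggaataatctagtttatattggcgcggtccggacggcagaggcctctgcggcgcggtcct
Paics: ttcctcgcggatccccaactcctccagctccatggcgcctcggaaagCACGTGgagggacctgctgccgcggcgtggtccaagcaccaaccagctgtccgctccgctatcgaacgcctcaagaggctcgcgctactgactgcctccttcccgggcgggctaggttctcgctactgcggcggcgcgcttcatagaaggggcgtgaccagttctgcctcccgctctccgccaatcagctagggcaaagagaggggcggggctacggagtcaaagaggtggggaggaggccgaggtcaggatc
Ppat: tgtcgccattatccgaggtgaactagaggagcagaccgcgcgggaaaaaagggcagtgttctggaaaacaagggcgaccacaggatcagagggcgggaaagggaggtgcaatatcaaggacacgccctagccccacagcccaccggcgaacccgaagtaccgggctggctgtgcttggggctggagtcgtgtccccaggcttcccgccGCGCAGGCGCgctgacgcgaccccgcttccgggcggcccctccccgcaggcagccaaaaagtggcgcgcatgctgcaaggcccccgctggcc

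The E-box began at position -7 from the annotated start in Atic, -110 in Impdh2 and -203 in Paics. These letters, searched on both strands, were in 3 of the 10 windows and in 7.15% of all 32851 RefSeq windows of the same length. The NRF1 core was in Ppat alone among the 10 windows, at position -42, and in 6.23% of all windows. The GC box GGGCGG was in all 10 windows against 35.7% of all windows, and CCAAT in 5 against 37.4%. The ATF4 motif TGATGNAA was in the Prps1 window alone among the 10, against 3.97%, and the cyclic AMP motif TGACGTCA in none, against 1.79%. The windows of the 10 genes were rich in G and C, with a median of 63.7% against 52.7% over all windows. Of the 3 genes holding the E-box, 2 rose at 24 h (Atic and Impdh2), and of the 6 matched genes without it 5 rose.

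In the saline libraries at 24 h the genes differed widely in level per length, given here as the authors' deposited nRPKM (reads per kilobase of gene and per 1000000 reads, adjusted by a size factor). Paics was the highest, at 77.7 ± 9.59 nRPKM (SD, n = 4), followed by Atic at 55.1 ± 2.20, Gart at 23.1 ± 0.416 and Impdh1 at 17.9 ± 1.67. Gmps stood at 14.6 ± 0.997 nRPKM, Prps1 at 13.7 ± 1.69, Adsl at 12.4 ± 0.457 and Ppat at 11.03 ± 0.597. Impdh2, at 8.74 ± 0.652 nRPKM, and Pfas, at 6.78 ± 0.416, were the lowest of the 10 rows. The row of Impdh2-ps, a near-identical copy of Impdh2, stood at 35.4 ± 2.22 nRPKM in the same libraries. The places of Impdh2 and of Prps1, which has a similar copy, are therefore uncertain. The library ranges of neighbours in this order did not overlap, except for Gmps with Prps1 and Prps1 with Adsl. In the DT libraries at 24 h the leading pair changed places, with Atic at 84.5 ± 9.13 nRPKM and Paics at 73.9 ± 8.64, and their library ranges overlapped. At 48 and 96 h Paics was again above Atic in both treatments, with no overlap of library ranges.

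DT was compared with saline at 24 h to ask which genes of the pathway differed at the earliest time measured. Of the 10 genes, 8 rose and 0 fell (quasi-likelihood test of edgeR, with p adjusted by Benjamini-Hochberg over all genes tested and a threshold of 0.05). Of all genes tested, 19.9% rose and 18.9% fell. At none of the 3 times was any of the 10 genes lower with DT at an unadjusted p under 0.05, and DESeq2 and limma voom also called 0 of them lower. The median log2 fold change of the 10 genes was 0.42, against -0.0036 over all genes tested. The 8 genes were those whose 4 DT libraries all lay above the 4 saline libraries in CPM (counts per 1000000 counts of a library), which held for 18.1% of all genes. Summed over the 10 genes, the saline libraries held 792 to 856 CPM and the DT libraries 997 to 1212 CPM. In these bulk samples, more cells of a type that expresses a gene and more RNA of it per cell cannot be told apart. Replicate 3 of DT at 24 h was the highest DT library for 9 of the 10 genes, all but Pfas, and the same 8 genes passed the test without it.

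**Figure D1:**
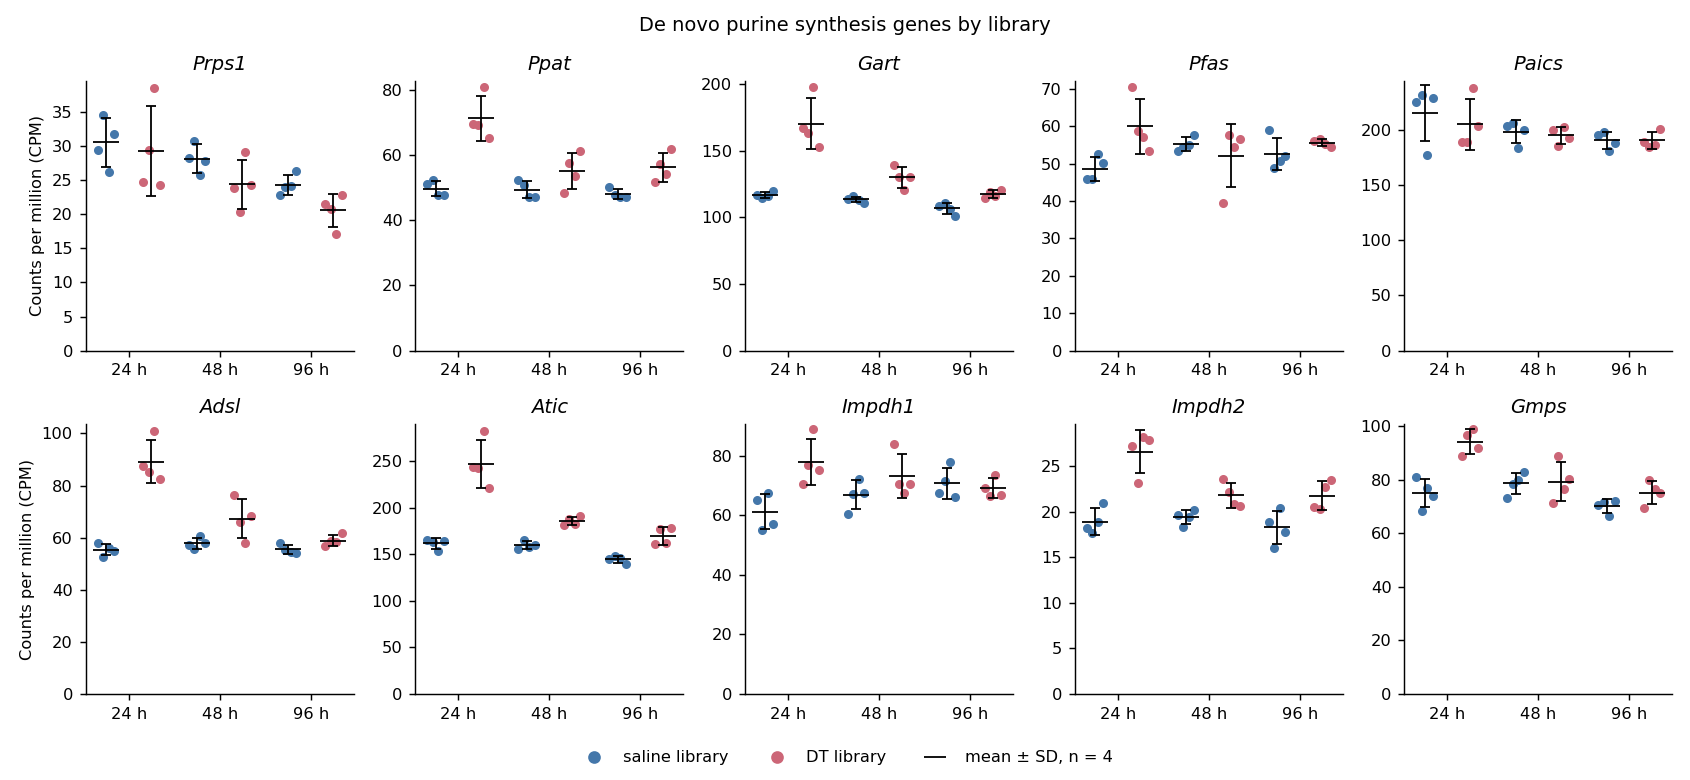
CPM (linear axes from 0) of the 10 genes in each of the 24 libraries, by time, with saline in blue and DT in red; horizontal lines and bars are the mean ± SD of 4 libraries. At 24 h the DT libraries of 8 genes lie above all saline libraries, while those of Prps1 and Paics mix with them.

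At the entry to the pathway the genes differed. Prps1 (chrX:140456603-140476140) stood at 29.4, 34.6, 26.2 and 31.8 CPM in the saline libraries at 24 h and at 24.8, 29.4, 38.4 and 24.2 CPM in the DT libraries. The groups overlapped, and the highest and both lowest values were all from DT libraries. The log2 fold change was -0.05 (95% confidence interval -0.31 to 0.21, adjusted p 0.768). Ppat, the committing amidotransferase, stood at 51.1, 52.3, 47.8 and 47.6 CPM with saline and at 69.5, 69.3, 81.0 and 65.2 CPM with DT. Every DT library was above every saline library, and Ppat rose by 0.52 ± 0.07 on the log2 scale (SE, adjusted p 6.8e-06).

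Of the genes for the steps to IMP, 4 of 5 rose at 24 h. Gart (chr16:91621395-91646972), whose protein carries several activities of the early and middle steps, stood at 117, 115, 116 and 119.6 CPM with saline and at 167, 164, 198 and 153 CPM with DT. The saline libraries lay close together and well below every DT library, and the log2 fold change was 0.55 ± 0.06 (SE, adjusted p 2.6e-07). Adsl (chr15:80948490-80970947), the adenylosuccinate lyase, stood at 57.9, 52.7, 55.9 and 55.0 CPM with saline and at 87.5, 85.2, 101 and 82.6 CPM with DT. It showed the largest log2 fold change of the 10 genes, 0.69 ± 0.07 (SE, adjusted p 7.5e-08). Atic (chr1:71557156-71579403), which carries out the last steps to IMP, stood at 165, 164, 153 and 165 CPM with saline and at 244, 242, 283 and 221 CPM with DT. It rose by 0.61 ± 0.06 on the log2 scale (SE, adjusted p 3.4e-08), again with no overlap between the groups.

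Pfas (chr11:68985701-69008460), the formylglycinamidine ribonucleotide synthase, had the smallest rise of the 8 genes. Its libraries stood at 45.8, 45.9, 52.5 and 50.1 CPM with saline and at 70.5, 58.8, 57.2 and 53.3 CPM with DT. The gap between the highest saline and the lowest DT library was small, and the log2 fold change was 0.30 ± 0.09 (SE, adjusted p 0.0144). The adjusted p was 0.0633 without saline replicate 1, 0.0653 without saline replicate 2 and 0.100 without DT replicate 1. Paics, a bifunctional carboxylase and synthetase, was the gene of this group that did not pass the test. It stood at 225, 231, 177 and 228 CPM with saline and at 189, 189, 238 and 203 CPM with DT. Saline replicate 3 lay far below the other saline libraries, DT replicate 3 above all saline libraries, and the groups overlapped. The log2 fold change was -0.07 (95% confidence interval -0.23 to 0.09, adjusted p 0.484). Without saline replicate 3, Paics was lower in DT by the same test, with a log2 fold change of -0.18 and an adjusted p of 0.0440.

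The genes of the branch from IMP to GMP all rose at 24 h. Impdh2 (chr9:108560436-108565577) stood at 18.2, 17.6, 18.9 and 21.0 CPM with saline and at 27.2, 23.1, 28.2 and 27.9 CPM with DT, a log2 fold change of 0.49 ± 0.08 (SE, adjusted p 5.4e-05). Its isozyme Impdh1 (chr6:29200436-29216364) had 55.2 to 67.4 CPM with saline and 70.7 to 88.9 with DT, a log2 fold change of 0.35 ± 0.08 (SE, adjusted p 0.00171). Gmps (chr3:63963633-64021554) had 68.4 to 81.1 CPM with saline and 88.9 to 99.1 with DT, a log2 fold change of 0.33 ± 0.07 (SE, adjusted p 3.5e-04). In each of these genes the lowest DT library was above the highest saline library.

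The facing genes Ppat and Paics were also compared within libraries. The ratio of Ppat to Paics in nRPKM was 0.143 ± 0.0158 (SD, n = 4) with saline at 24 h and 0.215 ± 0.0140 with DT, with ranges of 0.129 to 0.166 and 0.197 to 0.226. The mean log2 ratio was 0.59 higher with DT. The exact two-sided permutation test gave p = 0.0286, the smallest that 4 against 4 libraries allow, and 0.0571 after adjustment over 6 such tests. At 48 h the difference in log2 ratio was 0.18 with overlapping groups (exact permutation p = 0.143, adjusted 0.214), and 0.21 without DT replicate 3 (exact permutation p = 0.229, where the smallest possible is 0.0571). At 96 h it was 0.22 with no overlap (exact permutation p = 0.0286, adjusted 0.0571). The pair was chosen after its values were seen, with Ppat called at 24 h and Paics not, so these tests are no independent support for those results. The 6 tests also covered the ratio of Impdh2 to Impdh1 at each time. That log2 ratio was 0.29 higher with DT at 96 h, with no overlap (exact permutation p = 0.0286, adjusted 0.0571). Its groups overlapped at 24 h (exact permutation p = 0.286) and 48 h (0.629). The ratio of Impdh2 to Impdh1 can depend on how reads were split between Impdh2 and its near-identical copy. In the GENCODE annotation of the same build, 272 exonic bases of Ppat (6.15%) overlap exons of Paics on the other strand (8.67% of its exonic bases). Whether the counting used strand is not given in the sources used here, and reads from that stretch could not be told apart without it.

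**Figure D2:**
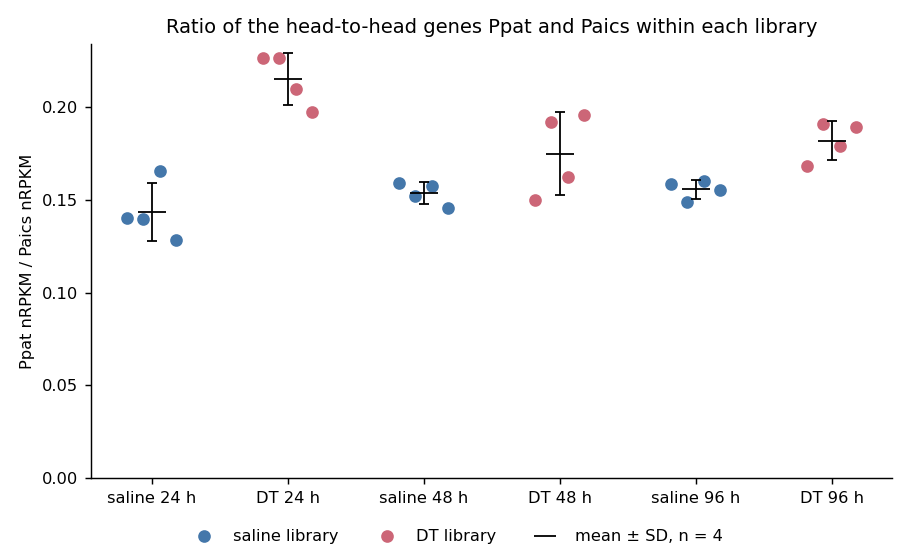
Ratio of Ppat to Paics (nRPKM over nRPKM, linear axis from 0) in each library by group, with the mean ± SD of 4 libraries. The DT libraries at 24 h, from 0.197 to 0.226, lie above the saline libraries, from 0.129 to 0.166, and at 48 h the groups overlap.

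Impdh2 has a near-identical copy among the gene rows and Prps1 a similar one, so their counts can depend on how the authors assigned reads. Impdh2-ps, a pseudogene, is 99.7% identical to the Impdh2 transcript over 1545 bases, and 67.6% of the 50-base stretches of Impdh2 also occur in it. The row of Impdh2-ps held 74.9% to 78.7% of the counts of the pair in the 24 libraries. Taken alone, the pseudogene row had a 24 h log2 fold change of 0.43 (adjusted p 3.6e-05). With the 2 rows summed, Impdh2 and its copy stood at 85.3 ± 5.40 CPM (SD, n = 4) with saline and at 116 ± 8.80 with DT at 24 h. The summed pair rose by 0.44 on the log2 scale at 24 h (adjusted p 1.5e-05), 0.22 at 48 h (adjusted p 0.0341, and 0.00672 without DT replicate 3) and 0.23 at 96 h (adjusted p 0.0496). Prps1l3 is 93.2% identical to Prps1 over 1478 bases, shares 10.1% of its 50-base stretches and held 67.2% to 81.5% of the counts of that pair. Summed with Prps1, it gave a log2 fold change of 0.06 at 24 h (95% confidence interval -0.09 to 0.20, adjusted p 0.565), on the other side of 0 from that of Prps1 alone. The levels of Impdh2 and Prps1 given here are therefore uncertain. Paics and Atic also have pseudogenes, to which no gene row was matched. Those of Paics are 87.6% to 91.15% identical, over up to 51.5% of its transcript. For Atic, Gm15550 is 88.9% identical over 53.5%. Of the 50-base stretches of Paics 11.5% occur in other genes (8.69% in Ppat), and of those of Atic 0.858%. The part of these copies in the counts was not tested. An annotated antisense gene, Gm15964, covers 19.7% of the exonic bases of Gart, and reads from the 2 genes could not be told apart there without strand.

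**Figure D3:**
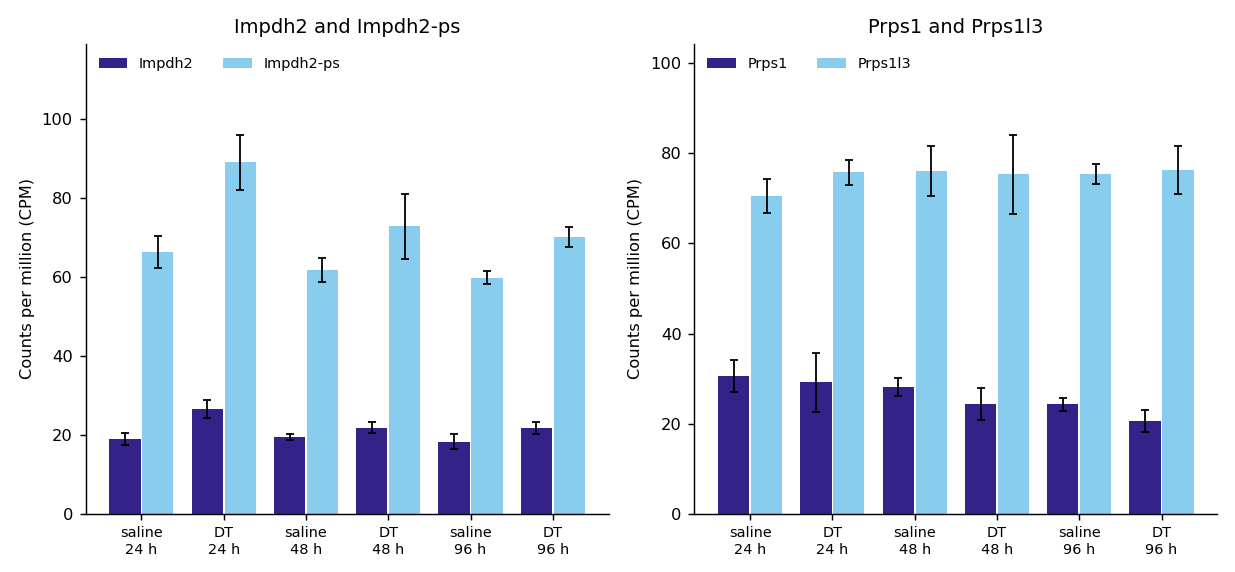
Mean CPM ± SD (4 libraries per bar, linear axes from 0) of Impdh2 beside Impdh2-ps and of Prps1 beside Prps1l3 in each group. The copy holds most of the counts of each pair in every group.

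At 48 h, 3 of the 10 genes rose and 0 fell, against 4.83% of all genes tested that rose and 6.50% that fell. The 844 higher calls behind that share became 1369 (7.72% of genes tested) without DT replicate 3, 438 without saline replicate 1, 532 without saline replicate 2, 515 without saline replicate 4 and 439 without DT replicate 4. The median log2 fold change was 0.14 for the 10 genes and -0.0019 for all genes. Atic stood at 156, 166, 158 and 159.9 CPM with saline and at 182, 188, 183 and 191 CPM with DT, and rose by 0.22 ± 0.06 on the log2 scale (SE, adjusted p 0.0181). Gart stood at 114, 116, 113 and 111 CPM with saline and at 139, 130.1, 120.4 and 130.2 CPM with DT, and rose by 0.20 ± 0.06 (SE, adjusted p 0.0371). Both had no overlap between the groups. Adsl stood at 57.1, 55.5, 60.6 and 58.0 CPM with saline and at 76.4, 66.1, 58.1 and 68.5 CPM with DT, and rose by 0.22 ± 0.07 (SE, adjusted p 0.0409). Its replicate 3 of DT lay within the saline range. Impdh2 was the remaining gene with no overlap between the groups, at 18.3 to 20.2 CPM with saline and 20.6 to 23.6 with DT, and had an adjusted p of 0.201. No overlap with DT higher held for 7.16% of all genes. Without DT replicate 3 it held for 13.5% of all genes and for Adsl as well as these 3.

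The calls at 48 h were close to the threshold. Without replicate 3 of DT, the 48 h DT library nearest to saline on the first component, the same 3 genes passed. Their log2 fold changes were then 0.25 for Gart, 0.30 for Adsl and 0.24 for Atic (adjusted p 0.0103, 0.00351 and 0.0166). No other of the 10 genes passed without it, and Prps1 had a log2 fold change of -0.28 (adjusted p 0.154, unadjusted p under 0.05). With DT replicate 1 left out instead, the farthest by chi-square, Gart and Adsl missed the threshold (adjusted p 0.0994 and 0.147). Without a filter on low counts Gart and Adsl missed the threshold (adjusted p 0.0651 and 0.0595), as they did in a fit of the 48 h libraries alone (0.0867 and 0.138), and Atic passed in both. The adjusted p of Gart was 0.0503 to 0.0994 without any 1 of the other 7 libraries of that time. That of Adsl was 0.0679 to 0.147 on leaving out saline replicate 1, 2 or 4, or either DT replicate 1 or 4, and that of Atic 0.0528 without saline replicate 1 and 0.0607 without DT replicate 4. Prps1 had a log2 fold change of -0.21 (adjusted p 0.314) and Pfas one of -0.08 (adjusted p 0.627). Paics, at -0.02, and Gmps, at 0.01, lay near 0, with 95% confidence intervals of -0.18 to 0.13 and -0.12 to 0.15.

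At 96 h, 1 of the 10 genes rose and 0 fell, against 1.01% of all genes tested that rose and 3.02% that fell. The 176 higher calls behind that share became 63 without DT replicate 2, 72 without DT replicate 4, 69 without saline replicate 3 and 81 without saline replicate 4. Atic stood at 145, 149, 147 and 139.8 CPM with saline and at 161, 177, 163 and 179 CPM with DT. The groups did not overlap, and Atic rose by 0.23 ± 0.06 on the log2 scale (SE, adjusted p 0.0266). Its adjusted p was 0.0517 to 0.0967 on leaving out saline replicate 1, 3 or 4, or either DT replicate 2 or 4, and 0.0674 without a filter on low counts. Ppat and Gart also had no overlap, as did 4.91% of all genes with DT higher, but did not pass the test. Ppat had a log2 fold change of 0.22 (adjusted p 0.0974) and Gart one of 0.14 (adjusted p 0.241). Paics had the same mean in both groups to within the error, 190.4 ± 7.79 CPM (SD, n = 4) with saline and 190.2 ± 7.39 with DT. The median log2 fold change of the 10 genes was 0.09.

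**Figure D4:**
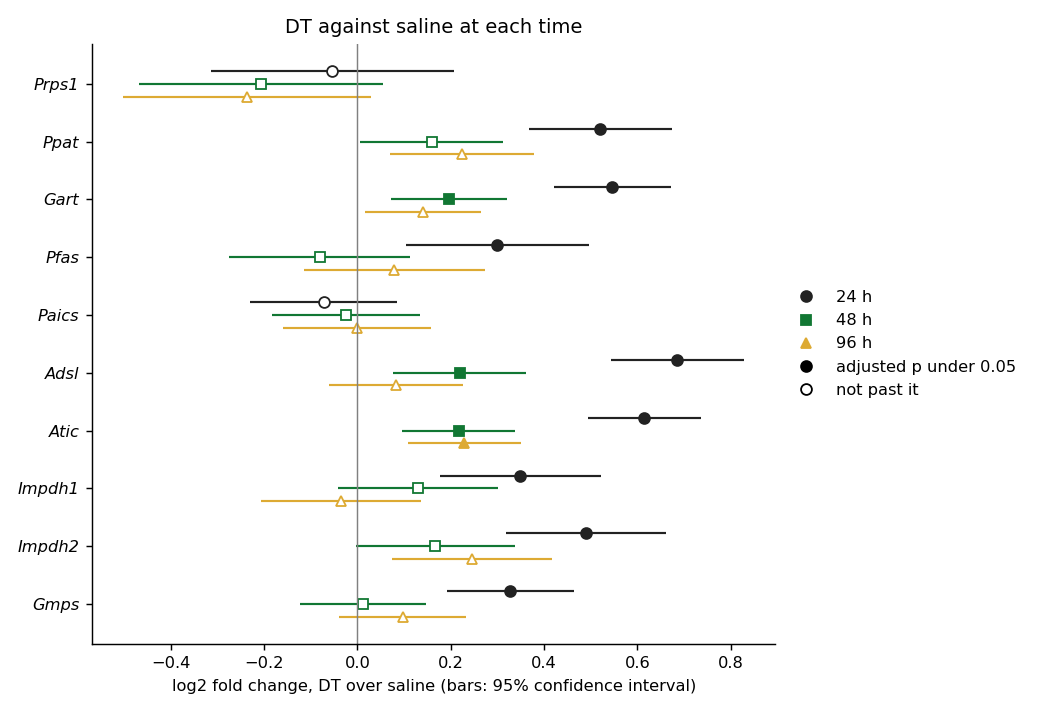
Log2 fold change of DT over saline for each of the 10 genes at 24, 48 and 96 h, with 95% confidence intervals; filled symbols have an adjusted p under 0.05. The 8 filled circles at 24 h run from 0.30 to 0.69, and the filled symbols at 48 and 96 h from 0.20 to 0.23.

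Whether the DT effect differed between times was tested directly, with the saline libraries of each time as their own control. The log2 fold change of DT over saline was lower at 48 h than at 24 h for 3 of the 10 genes, and higher for 0. Of all genes it was lower for 2.34% and higher for 0.555%. The shares of all genes count the sign of the difference only. A gene that DT lowered at 24 h and that was nearer to saline later therefore counts as higher. The difference was -0.47 on the log2 scale for Adsl (adjusted p 0.00793), -0.40 for Atic (adjusted p 0.00735) and -0.35 for Gart (adjusted p 0.0237). At 96 h the log2 fold change was lower than at 24 h for 4 genes and higher for 0, against 7.82% and 4.08% of all genes. These were Adsl at -0.60 (adjusted p 4.25e-04), Gart at -0.41 (adjusted p 0.00325), Atic at -0.39 (adjusted p 0.00363) and Impdh1 at -0.38 (adjusted p 0.0333). The joint test among the 3 times called Adsl, Atic and Gart (adjusted p 8.63e-04, 0.00362 and 0.00581), against 7.97% of all genes. The 48 h and 96 h differences share the 24 h libraries and are not independent of each other.

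The calls for Gart at 48 h and Impdh1 at 96 h rested on single libraries. The adjusted p for Gart was 0.0539 to 0.0990 on leaving out any 1 saline library of 24 h, DT replicate 1 of 24 h, saline replicate 2 or 4 of 48 h or DT replicate 2 or 3 of 48 h. DT replicate 3 of 48 h stood apart on the first component. Without it the 48 h difference was -0.28 for Gart (adjusted p 0.0990), -0.37 for Adsl (adjusted p 0.0321) and -0.36 for Atic (adjusted p 0.0415). Gart also missed the threshold without a filter (adjusted p 0.0548) and in a fit of the 24 and 48 h libraries alone (0.0702). For Impdh1 the adjusted p was 0.0554 to 0.109 without any 1 of 7 libraries: at 24 h these were saline replicates 2 and 4 and DT replicate 3, and at 96 h saline replicates 2 and 3 and DT replicates 2 and 4. Ppat missed the threshold at both times, with differences of -0.36 (adjusted p 0.0616) and -0.30 (adjusted p 0.0671). It passed at 48 h without DT replicate 4 of 24 h or of 48 h (adjusted p 0.0315 and 0.0321) and at 96 h without DT replicate 4 of 24 h (adjusted p 0.0377). Among the saline libraries alone, 0 of the 10 genes changed between 24 and 48 h by the edgeR test, and 0 between 24 and 96 h, against 0.355% and 3.22% of all genes. DESeq2 gave 0 and 0, and limma voom 0 and 2, with the shares of all genes called by them not counted. Some saline levels differed between 24 and 96 h at an unadjusted p under 0.05 by the edgeR test. Their log2 fold changes were -0.33 for Prps1, -0.18 for Paics, -0.16 for Atic, -0.13 for Gart and 0.21 for Impdh1. Between 24 and 48 h no gene of the 10 did so. The share of all genes at that threshold was not counted, so whether these exceed the general change of the saline libraries cannot be told.

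The genes around the pathway were taken from lists of nucleotide metabolism, given here by counts at 24 h, with the SE after each log2 fold change. Of 15 other genes of purine synthesis and interconversion, 5 rose and 6 fell. Nme1, a nucleoside diphosphate kinase, went from 90.9 to 161 CPM (log2 fold change 0.83 ± 0.11). Adss and Adssl1 encode isozymes of the step from IMP towards adenosine monophosphate, and they moved in opposite directions. Adss rose from 127 to 158 CPM (0.32 ± 0.05), and Adssl1 fell from 19.6 to 10.3 CPM, a log2 fold change of -0.93 ± 0.15. Prps2, the partner isozyme of Prps1, fell from 119 to 84.6 CPM (log2 fold change -0.49 ± 0.11, adjusted p 9.3e-04), and was picked for its role after its value was seen.

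Of 8 salvage genes 4 rose and 0 fell. Aprt, which recovers adenine, went from 92.0 to 145 CPM (log2 fold change 0.65 ± 0.11), and Hprt, which recovers hypoxanthine and guanine, from 92.7 to 105 CPM (0.19 ± 0.06). Of 10 genes of purine breakdown 3 rose and 2 fell. Samhd1, which hydrolyses deoxynucleoside triphosphates, had a log2 fold change of 0.90 ± 0.07, and Nt5e, the surface nucleotidase CD73, one of -1.30 ± 0.21. Ampd1, the AMP deaminase of muscle, was near the floor with saline, at 0.111 ± 0.0744 CPM (SD, n = 4), and at 1.67 ± 0.588 CPM with DT.

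The one-carbon list, whose products feed formyl groups into the ring at the Gart and Atic steps, had 7 of 11 genes higher and 2 lower. Mthfd1, which makes formyl-tetrahydrofolate, went from 70.01 to 133 CPM (log2 fold change 0.92 ± 0.08), and Shmt2, the mitochondrial serine hydroxymethyltransferase, from 80.4 to 125 CPM (0.64 ± 0.08). Psat1, of serine synthesis, had a log2 fold change of 1.23 ± 0.10. Of 7 pentose phosphate genes, which supply ribose phosphate, 6 rose and 0 fell, by less. Pgd and Tkt each had a log2 fold change of 0.32. Of 12 genes of pyrimidine synthesis 10 rose and 1 fell, among them Cad, which starts that pathway, from 96.9 to 178 CPM (0.88 ± 0.08). Of the 3 ribonucleotide reductase genes Rrm2 (1.87 ± 0.18) and Rrm1 (0.93 ± 0.10) rose and Rrm2b (-0.41 ± 0.11) fell. Of 7 regulators of these genes, Myc (0.51 ± 0.07), E2f1 (0.77 ± 0.11) and Atf4 (0.45 ± 0.08) rose, and Nrf1 had a log2 fold change of 0.12 (adjusted p 0.110).

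**Figure D5:**
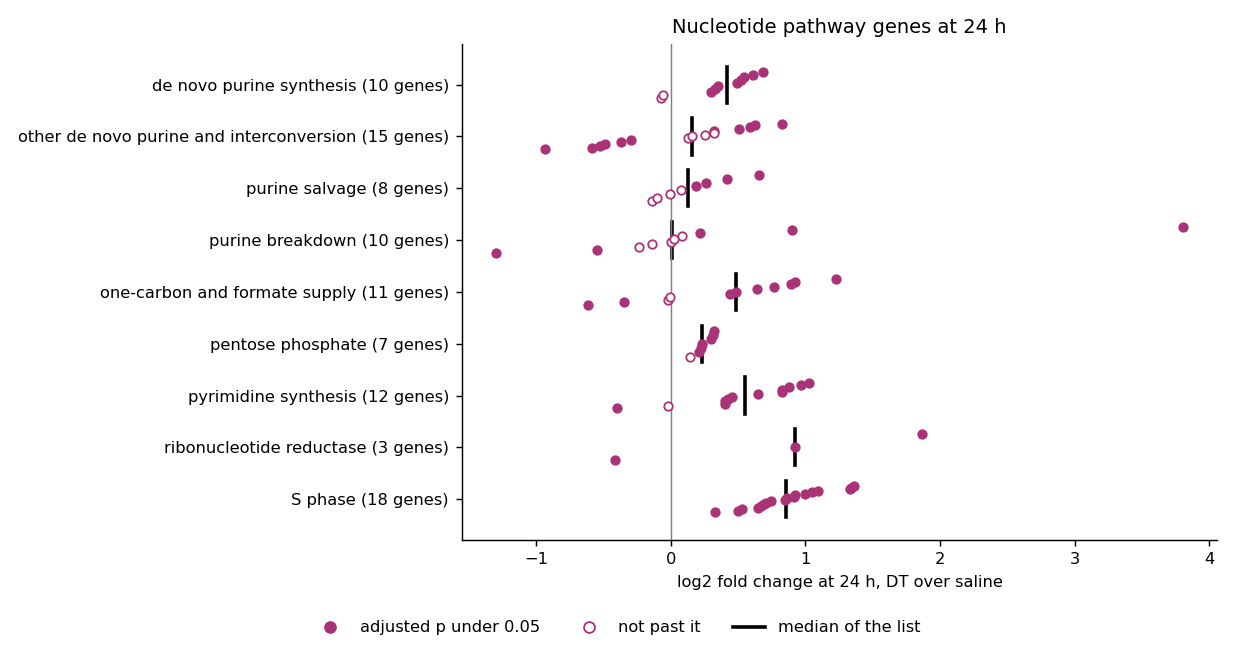
Log2 fold change of DT over saline at 24 h for each gene of 9 lists (1 point per gene; filled points have an adjusted p under 0.05; the vertical bar is the list median). The 10 de novo purine genes have a median of 0.42, the purine salvage list one of 0.13 and the S phase list one of 0.85.

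By list median, the log2 fold change at 24 h was 0.42 for the 10 genes, 0.16 for the other purine synthesis genes, 0.13 for salvage, 0.01 for breakdown, 0.48 for one-carbon supply, 0.23 for the pentose phosphate list and 0.55 for pyrimidine synthesis. The differences between lists were not tested. At 48 h, 3 of 11 one-carbon genes, 3 of 12 pyrimidine genes and 1 of 8 salvage genes rose, against 4.83% of all genes. Without DT replicate 3 these counts were 5, 6 and 1, against 7.72%. At 96 h they were 3, 0 and 0, against 1.01%. Of the 15 other purine genes 4 rose and 1 fell at 48 h (5 and 2 without DT replicate 3), and 0 were called at 96 h. Of 10 breakdown genes 2 rose at 48 h (1 without DT replicate 3) and 1 at 96 h. Of 7 pentose phosphate genes 0 were called at either time. Nme1 is in both the other purine and the pyrimidine list.

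Cell cycle genes were read beside the 10 genes. All 18 of 18 S phase genes and all 16 of 16 G2/M genes rose at 24 h, with medians of 0.85 and 1.27 on the log2 scale. Their summed levels went from 670 to 747 CPM with saline to 1072 to 1573 CPM with DT for S phase, and from 458 to 547 to 1016 to 1279 CPM for G2/M. At 48 h 8 S phase and 14 G2/M genes rose (11 and 14 without DT replicate 3), and at 96 h 1 and 11. The part of these changes in the values of the 10 genes was not tested.

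Markers of other cell types were read beside these results. All 10 of 10 epithelial markers passed the filter on low counts, of which 3 rose and 3 fell at 24 h, and their summed levels overlapped between saline (7543 to 8108 CPM) and DT (7696 to 9479 CPM). Fibroblast markers were also present, with 8 of 8 past the filter. Their summed levels overlapped at 24 h, from 3408 to 3999 CPM with saline and from 2899 to 6673 CPM with DT, and 2 of 8 rose. At 48 h they ran from 3611 to 7305 CPM with saline and from 7030 to 11428 CPM with DT, with 0 of 8 called, also without DT replicate 3. Of 8 macrophage and monocyte markers 0 changed at 24 h, and of 7 endothelial markers 1 rose. At 48 h 1 macrophage and monocyte marker fell (0 without DT replicate 3) and 1 endothelial marker rose, and at 96 h 0 of either list changed. The saline libraries themselves differed between 24 and 96 h, with 7 of 7 endothelial markers higher at 96 h (median log2 fold change 1.57), 4 of 8 macrophage and monocyte markers lower (median -1.34) and 1 of 8 fibroblast markers higher (median 0.93). Of 6 mast cell markers 5 passed the filter, of which 1 rose and 1 fell at 24 h, 1 fell at 48 h and 1 fell at 96 h. Of 4 neutrophil markers 3 passed the filter, and 0 were called with DT at any time. Of 6 markers of T and NK cells 5 were in the files and 0 passed the filter on low counts. Of those of B and plasma cells 0 of 4 passed. The part of other cell types in the results was not tested.

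Likeness of profile was read among 10243 other protein-coding genes with an assigned symbol and at least 10 CPM on average. Pseudogenes were left out, and with them Impdh2-ps, the near-identical copy of Impdh2. Those most like the mean profile of the 10 genes across the 24 libraries were Impa1, Psme3, Ssrp1, Ogdh and Uba2. Likeness was the root-mean-square difference of centred log2 CPM, which was 0.0450 for Impa1 and 0.0503 for Uba2, the fifth in order. For Ppat the nearest were Srsf1 (0.0659), Cse1l and Nup205. For Paics they were Sptlc1 (0.0524), Cetn3 and Mplkip, and for Impdh2 they were Prorp (0.0959), Noc2l and Exosc7. Within the pathway, Gart was nearest to Atic (0.0563) and to Adsl (0.0670), and Prps1 lay farthest from Impdh2 (0.332). All these profiles share the same 24 libraries and their scaling, and the distances are descriptions with no test.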

How the data were processed

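Per the labels' protocols, RNA of sorted cells was isolated with an RNeasy Micro kit, RNA quality was read on a Bioanalyzer, and the polyA fraction was sequenced. The authors deposited 1 table per library with a count of uniquely aligned reads per gene, per the file headers, and an nRPKM, an RPKM adjusted by a size factor. Counts were used as deposited in every test, and the deposited RPKM values for levels between genes. GSNAP and GRCm38 appear in the submitters' processing notes. Their versions, the annotation and the use of strand were not given in the sources used here. RefSeq of GRCm38.p6 gave symbols to 31049 identifiers (85.0%).

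Counts of all 24 libraries entered 1 fit in edgeR 4.0.16 (R 4.3.3; quasi-likelihood test with robust dispersion, TMM scaling, filtering by expression within groups), with 1 coefficient for each group and 18 degrees of freedom left. P-values are two-sided and adjusted by Benjamini-Hochberg over 17468 genes, with a threshold of 0.05. The SE was obtained as the absolute log2 fold change divided by the root of its F statistic. The 10 genes, the other lists and the tests were chosen with earlier results of these data known. All 10 genes were named at every time, and of each other nucleotide list up to 4 genes with the smallest p at 24 h, of which a part is printed. Replicates of a group differed by more than sampling noise, with a chi-square per degree of freedom of at least 4.24 between any pair. Copies of the 10 genes were sought with blastn 2.17.0 among GENCODE transcripts. The test was tried on simulated data before use. The other settings were scaling by median of ratios or by upper quartile, no filter and a stricter filter, DESeq2 1.42.0, limma 3.58.1 voom with quality weights, a replicate block, only the libraries compared, and each library left out. The authors' size factors, summing of copies, and counts over lists without DT replicate 3 of 48 h were added after seeing the data.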

Additional observations from a re-analysis of the deposited data

Results flagged for a closer look

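In the saline group at 24 h, replicate 3 was far below the other 3 libraries for 2 of the 10 genes. For Paics it stood at 177 CPM, and its gap to the next library was 0.887 of the whole range of the group. For Atic it stood at 153 CPM, with a gap of 0.863 of the range. Both exceed Dixon's 95% critical value for 4 libraries. Such a test flags about 1 in 20 groups by chance, and 2 of the 60 groups of gene, treatment and time tested here exceeded it.

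The DT effect differed between times for 4 genes, by interaction tests in edgeR with Benjamini-Hochberg adjustment over all genes. From 24 to 48 h it changed by -0.35 on the log2 scale for Gart, -0.47 for Adsl and -0.40 for Atic. From 24 to 96 h it changed by -0.41 for Gart, -0.60 for Adsl, -0.39 for Atic and -0.38 for Impdh1. All 7 differences have the same direction, with the larger effect at 24 h, and they share the 24 h libraries.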

How the results depend on the processing

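At 24 h, 8 of the 10 genes were called under each of the 10 settings tried, and 7 to 9 with 1 library left out. The counts at later times were less stable. At 48 h (3 genes called) they were 1 without a filter, 1 with only the libraries of that time, 4 with limma voom (Ppat added, adjusted p 0.00443), 4 with copies summed (Impdh2 added) and 0 with the replicate block (adjusted p 0.108 for Gart, 0.121 for Adsl and 0.0861 for Atic), and 0 to 3 with 1 library left out. At 96 h (1 gene called) they were 2 with upper quartile scaling, 0 without a filter, 3 with limma voom, 2 with copies summed and 0 with the replicate block, and 0 to 1 with 1 library left out. For the DT effect at 48 h against 24 h (3 genes) DESeq2 called 5 and the replicate block 0, with 2 to 4 on leaving out 1 library. For the joint test (3 genes) the replicate block gave 1, and leaving out 1 library 3 to 5. For the DT effect at 96 h against 24 h (4 genes) leaving out 1 library gave 3 to 5. For saline at 96 h against 24 h (0 genes) limma voom called 2, and leaving out 1 library 0 to 1. Under these settings all genes called were counted only for DT against saline. For the tests between times, a shift of the 10 genes therefore cannot be told from one of all genes. Over all genes, 1979 were called at 48 h, against 3975 with limma voom, 933 with the replicate block, 945 with only the libraries of that time and 1154 to 2741 with 1 library left out. At 96 h 704 were called, against 1561 with limma voom, 301 with the replicate block and 359 to 680 with 1 library left out. Upper quartile scaling turned the 176 higher and 528 lower calls at 96 h into 250 and 458. The cause of these shifts was not tested.

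Every reversal was of a change that passed no test under either setting. The log2 fold change of Prps1 at 24 h was 0.056 with copies summed and -0.21 to 0.025 with 1 library left out. That of Pfas at 48 h was 0.020 with limma voom and -0.13 to 0.033 with 1 library left out. That of Paics at 96 h was 0.024 with upper quartile scaling, 0.011 with median-of-ratios scaling and with DESeq2, 0.010 with the authors' size factors, 0.0094 with only the libraries of that time, 0.0090 without a filter, 0.0080 with limma voom and 0.0065 with the stricter filter, and -0.0084 to 0.035 with 1 library left out. With 1 library left out, Paics at 48 h ran from -0.060 to 0.012, Gmps at 48 h from -0.031 to 0.062, Impdh1 at 96 h from -0.065 to 0.030 and the Prps1 effect at 48 h against 24 h from -0.23 to 0.0060.

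The labels number the libraries of each group, and same-numbered saline and DT libraries deviated from their group means with correlations of -0.36 to 0.13, so the numbers were not taken as pairs. Fits with the block gave the counts above. Prps1 and Impdh2 are limited by reads shared with copies, and Paics and Atic have less similar pseudogene copies.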
